A study of Sus scrofa with 10 samples.

Results

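The caveolin and cavin genes were followed through 10 RNA-seq libraries of the domestic pig. The members are the 3 caveolins CAV1, CAV2 and CAV3 and the 4 cavins CAVIN1, CAVIN2, CAVIN3 and CAVIN4, taken as the rows of the deposited gene table whose identifiers map to these symbols. All 7 were found among its 25880 genes. The family was selected on gene membership and on its FPKM across the 9 tissues, the very low CAV3 and CAVIN1 values in 1 muscle included, so all levels are given as a description. The libraries came from Northeast Min pigs of 60 days with no treatment named. Heart, liver, spleen, lung, kidney, psoas major muscle, longissimus dorsi, subcutaneous adipose tissue and ovary had 1 library each, and the tenth came from mixed tissue, which according to its label held muscle and each of the other organs but no adipose tissue. The labels name no individual animals, so it is not known which libraries share one. With 1 library a tissue there is no replicate error, no neighbour in any order of tissues can be separated by its spread, and no test was made.

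Caveolae are small flask-shaped pits of the plasma membrane that buffer membrane tension and gather receptors and lipid enzymes, and they are most abundant in adipocytes, endothelium, type 1 alveolar cells and muscle. Caveolins are hairpin membrane proteins that build the bulb, and cavins are soluble coat proteins that wrap it and stabilise it. CAV1 and CAV2 form mixed oligomers in most non-muscle cells. CAV3 and CAVIN4 are the forms known from heart and skeletal muscle fibres. CAVIN1 is required for caveolae in all these tissues, and loss of CAV3 or CAVIN1 in people causes muscle disease.

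On the assembly Sscrofa11.1, CAV1 (ENSSSCG00000016634) lies on the minus strand of chromosome 18 from 29648118 to 29682467. CAV2 (ENSSSCG00000016635) lies beside it on the same strand, from 29697188 to 29707277, with a gap of 14720 bp. CAVIN2 (ENSSSCG00000026618) lies on the minus strand of chromosome 15 from 96474284 to 96490236, and CAVIN3 (ENSSSCG00000014633) on the plus strand of chromosome 9 from 3377707 to 3379624. An unnamed model on the opposite strand covers the whole length of CAV2, at no more than 0.0423 FPKM in any library. The gene models of the members differ from RefSeq or overlap other models, and the effect of this on their values was not tested. The start coordinates of CAV2, CAVIN2 and CAVIN3 lie at -1824, -2391 and -437 bp from those of RefSeq. The end of CAVIN3 lies at -227 bp. CAV3 (ENSSSCG00000040643, chromosome 13, plus strand, 65117741 to 65131796) was identified by its overlap with the RefSeq gene, since the identifier table gave it no name, and an unnamed model on the opposite strand covers its whole length. CAVIN1 (ENSSSCG00000035446, chromosome 12, plus strand, 20374923 to 20390250) starts 2447 bp downstream of the RefSeq gene, so its model lacks the RefSeq 5′ end. CAVIN4 (ENSSSCG00000037954, chromosome 1, plus strand, 242259719 to 242320056) spans 60338 bp against 9961 bp in RefSeq and shares 51287 bp with the model of TMEFF1 on the same strand.

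Values were read as FPKM, fragments per kilobase of transcript scaled to the fragments sequenced, so that levels of different genes can be set side by side. FPKM summed to between 292495 and 369254 per library. Depth, judged from the spacing of low values in short genes, was 11.5 to 31.5 M fragments, uncertain by a factor of 2. The libraries carried the markers of their labelled tissues: all 6 adipocyte markers were highest in adipose tissue, all 5 matched fibre markers in skeletal muscle, all 5 matched cardiomyocyte markers in heart and all 5 lymphocyte markers in spleen. The markers MYH1, MYH2, MYLPF, NPPA, VWF and CLDN5 were not matched by name. In whole tissue, fewer cells of a type and less RNA per cell cannot be told apart.

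CAV1, the principal structural caveolin, was at 1 FPKM or more in all 9 tissues, as was CAV2. CAV1 stood at 133.7 FPKM in lung, 87.3 in adipose tissue, 74.3 in heart, 35.6 in psoas major and 30.5 in longissimus dorsi. Levels were lower in spleen (15.7), ovary (13.6), kidney (7.01) and liver (1.51). The level in lung was thus 88.6 times that in liver, and in lung CAV1 outranked 97.6% of the genes detected at 1 FPKM or more, against 10.4% in liver. CAV2, its partner in mixed oligomers, kept nearly the same order of tissues. It stood at 71.0 FPKM in lung, 39.5 in adipose tissue, 25.7 in heart, 13.5 in psoas major, 9.19 in longissimus dorsi, 5.66 in ovary, 4.03 in spleen, 3.72 in kidney and 1.44 in liver. Only ovary and spleen changed places.

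CAV3, the muscle caveolin, was high in a single library. It stood at 42.0 FPKM in psoas major but at 0.275 in longissimus dorsi and 0.170 in heart. Elsewhere it reached 0.522 in spleen, 0.106 in lung and 0.0187 in adipose tissue, and it was listed at 0 in kidney, liver and ovary. The psoas value was above the longissimus value by a factor of 153, and the longissimus and heart values were below that of spleen, a tissue with little striated muscle.

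CAVIN1, the core coat protein of caveolae, was the most abundant member in 4 of the 9 tissues. It stood at 208.9 FPKM in adipose tissue, where it outranked 98.2% of detected genes, at 128 in lung, 83.9 in heart, 60.0 in longissimus dorsi, 24.1 in kidney, 14.3 in ovary, 5.75 in spleen and 4.20 in liver. Psoas major was at the bottom with 0.440 FPKM. That is 9.55-fold below liver, the next tissue, and 136-fold below the other skeletal muscle.

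CAVIN2, a cavin that binds phosphatidylserine, was highest in lung (56.0 FPKM), followed by heart (27.8) and adipose tissue (27.4). The remaining tissues lay close together, with ovary at 9.42, psoas major at 8.48, kidney at 7.23, spleen at 7.03, longissimus dorsi at 6.39 and liver at 5.22. CAVIN3, which binds protein kinase C delta, was also highest in lung, at 33.5 FPKM. It was followed by adipose tissue (20.2), ovary (18.6), spleen (12.3), heart (11.9), psoas major (8.91), longissimus dorsi (7.44), kidney (5.71) and liver (1.15). CAVIN3 placed ovary and spleen above heart and both muscles, unlike CAV1 and CAV2.

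CAVIN4, the muscle cavin, was high in both skeletal muscles, at 43.8 FPKM in longissimus dorsi and 23.1 in psoas major. It was at 0.267 in heart and at 0.317 in ovary. The other tissues lay between 0.0336 in spleen and 0.0697 in lung. TMEFF1, whose model overlaps that of CAVIN4, was by contrast at 8.12 FPKM in heart, 3.63 in longissimus dorsi and 2.09 in psoas major, and at 8.99 in ovary. Whether reads were divided between these models was not tested.

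**Figure D1:**
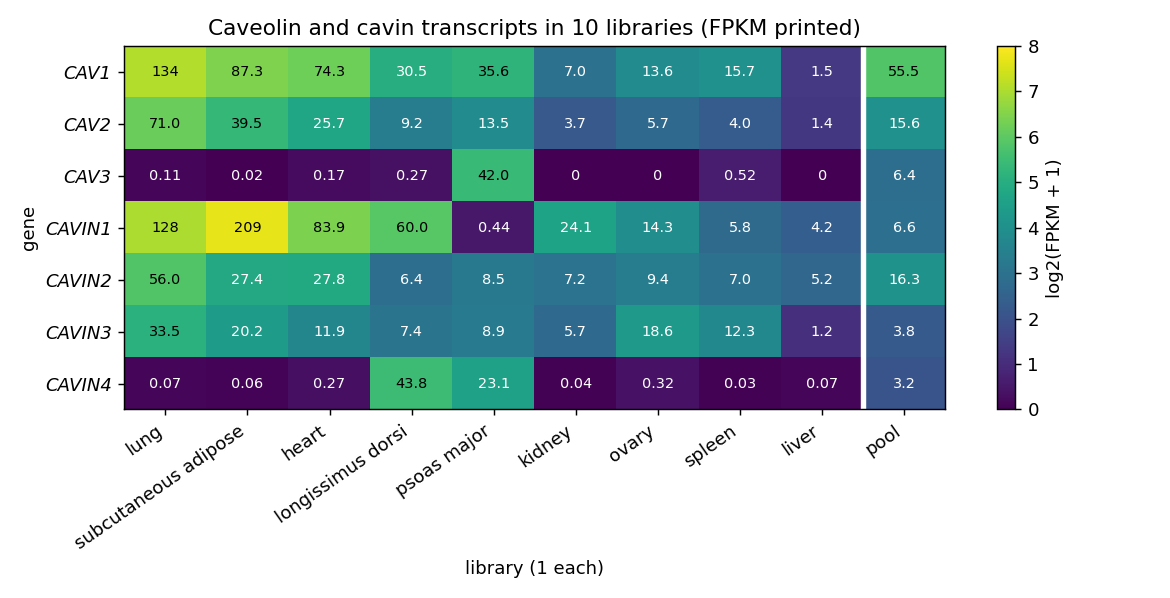
Levels of the 7 members (rows) in the 9 tissue libraries and the pool (columns, the pool right of the white line), coloured by log2(FPKM + 1) with the FPKM printed in each cell. Lung and adipose tissue are bright for CAV1, CAV2 and CAVIN1 to CAVIN3, CAV3 is bright in psoas major alone (42.0), and CAVIN1 is dark in psoas major alone (0.440).

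With the skeletal muscles averaged into 1 class, 4 members were highest in lung (CAV1, CAV2, CAVIN2 and CAVIN3), CAVIN1 in adipose tissue, and CAV3 and CAVIN4 in skeletal muscle. Of the 15637 genes that reached 1 FPKM in some tissue, 15.0% were highest in lung, 6.72% in adipose tissue and 4.38% in skeletal muscle. Enrichment was called where FPKM + 1 in 1 of the 8 classes exceeded each of the others 5-fold or more. This held for CAV3 and CAVIN4, beside 6.49% of all genes, and the members were chosen knowing such values. CAVIN4 was 26.2-fold above ovary on that scale. CAV3 was 14.6-fold above spleen, but this rests on psoas major: with longissimus dorsi alone as muscle, CAV3 was highest in spleen and 1 member was enriched. CAV1, CAV2, CAVIN1, CAVIN2 and CAVIN3 were not enriched, and their highest class was at most 1.98-fold above the next on this scale.

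Ratios within a library are untouched by any single scaling factor per library, though not by quantile scaling. CAV1 exceeded CAV2 in every tissue, by a factor of 1.05 in liver, 1.88 in lung and in kidney, 2.21 in adipose tissue, 2.40 in ovary, 2.63 in psoas major, 2.89 in heart, 3.32 in longissimus dorsi and 3.88 in spleen. The ratio of CAVIN1 to CAV1 was more variable. It was 3.44 in kidney, 2.79 in liver, 2.39 in adipose tissue, 1.97 in longissimus dorsi, 1.13 in heart, 1.05 in ovary, 0.961 in lung and 0.367 in spleen, and 0.0124 in psoas major. In psoas major CAV1 exceeded CAVIN1 by a factor of 80.7, and in the other 8 tissues by at most 2.72.

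The sum of the caveolins was 204.8 FPKM in lung, 126.8 in adipose tissue, 100.2 in heart, 91.1 in psoas major and 39.9 in longissimus dorsi, and at most 20.2 in the remaining tissues. CAV3 made up 46.1% of that sum in psoas major, 0.688% in longissimus dorsi and 0.170% in heart. The sum of the cavins was 256.5 FPKM in adipose tissue, 218 in lung, 123.8 in heart, 117.6 in longissimus dorsi, 42.7 in ovary and 40.9 in psoas major, and 10.6 in liver at the bottom. CAVIN1 supplied 81.4% of it in adipose tissue but 22.9% in spleen, where CAVIN3 was the leading cavin (49.1%), as it was in ovary (43.7%). In liver CAVIN2 led with 49.1%. CAVIN4 supplied 56.4% of the cavins in psoas major and 37.2% in longissimus dorsi, and 0.215% in heart.

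**Figure D2:**
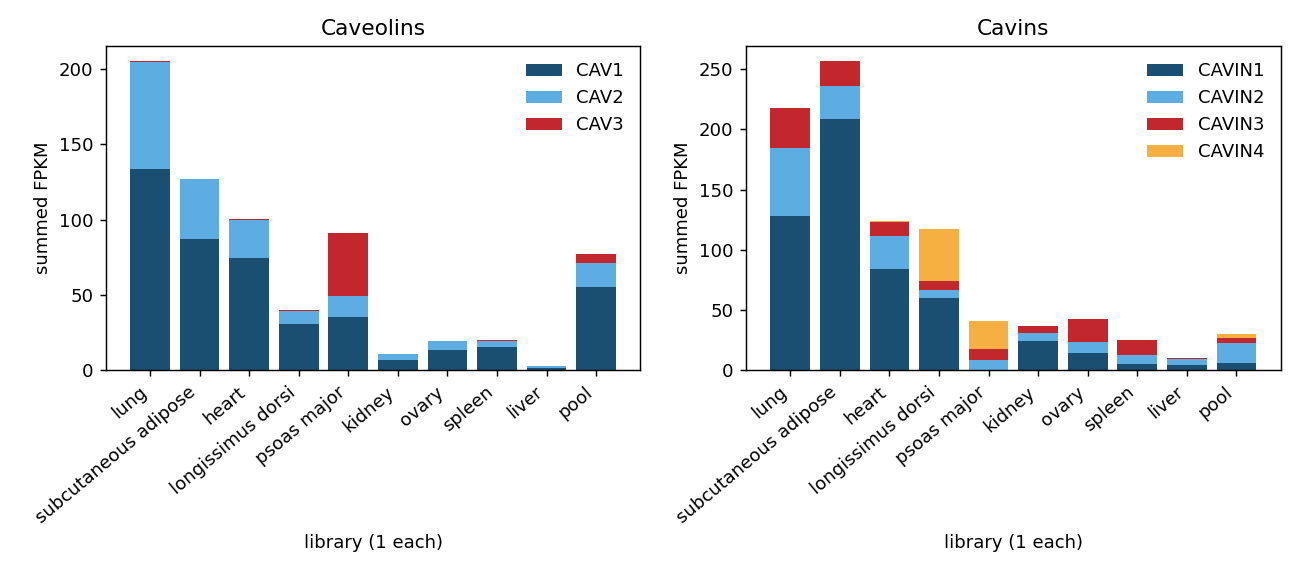
Stacked bars of summed FPKM for the caveolins (left) and cavins (right) in each library. CAV3 is a large block in psoas major (46.1% of the caveolins) and CAVIN4 is visible in both skeletal muscles, while the CAVIN1 block that dominates adipose tissue (81.4%) is missing from psoas major (1.08%).

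Psoas major, a postural hip flexor, and longissimus dorsi, the back muscle, were then set against each other. A gene was called at a difference of 1 or more in log2(FPKM + 1), that is 2-fold, among the 10513 genes at 1 FPKM or more in either muscle. CAV3 was higher in psoas major by 5.08 on that scale and CAVIN1 was lower by it, at -5.40. The other 5 members were under the threshold: CAV1 at 0.22, CAV2 at 0.51, CAVIN2 at 0.36, CAVIN3 at 0.23 and CAVIN4 at -0.90 (psoas minus longissimus). Of all genes, 4.66% were called higher in psoas major and 2.09% in longissimus dorsi, and the rule that chose the members had seen this contrast.

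The median of all genes lay at 0.27 towards psoas major, so CAV1 and CAVIN3 were on the median's longissimus side. With median-of-ratios scaling the median was -0.03 and CAV1 was at -0.15, CAVIN3 at -0.11, CAV2 at 0.17 and CAVIN2 at 0.03, while CAVIN4 reached -1.28 and passed the threshold. CAV3 and CAVIN1 stood at 5.36 and -6.13 there. The split of calls over all genes also turned with that scaling, from 490 higher in psoas major and 220 in longissimus dorsi to 324 and 549.

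The rule that chose the members had seen these low values, so the next counts are description only. CAV3 and CAVIN1 were 2 of 5 genes, among the 10513 tested, whose FPKM + 1 differed by 32-fold or more between the muscles (0.0476%). That cut is a log2 difference of 5. CAV3 fell under it after quantile scaling (4.79) and with a pseudocount of 5 (3.16), where CAVIN1 was at -5.32 and -3.58. The other 3 of these 5 genes were each listed at exactly 0 in the lower muscle. ND5, a respiratory chain subunit encoded in mitochondrial DNA, was listed at 0 in psoas major and at 108 FPKM in longissimus dorsi. An unnamed mitochondrial gene (ENSSSCG00000018083) was at 514 in psoas major and at 0 in each other library, and an unnamed gene on chromosome X (ENSSSCG00000036272) was at 0 in psoas major and 46.2 in longissimus dorsi. Whether these values of 0 are failed estimates was not tested. CAV3 in longissimus dorsi and CAVIN1 in psoas major were above 0. At the estimated depths they correspond to about 3.57 and 10.1 fragments per kilobase of transcript, against 964 for CAV3 in psoas major and 780.3 for CAVIN1 in longissimus dorsi. Whether the low values of CAV3 and CAVIN1 are failed estimates was not tested either.

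**Figure D3:**
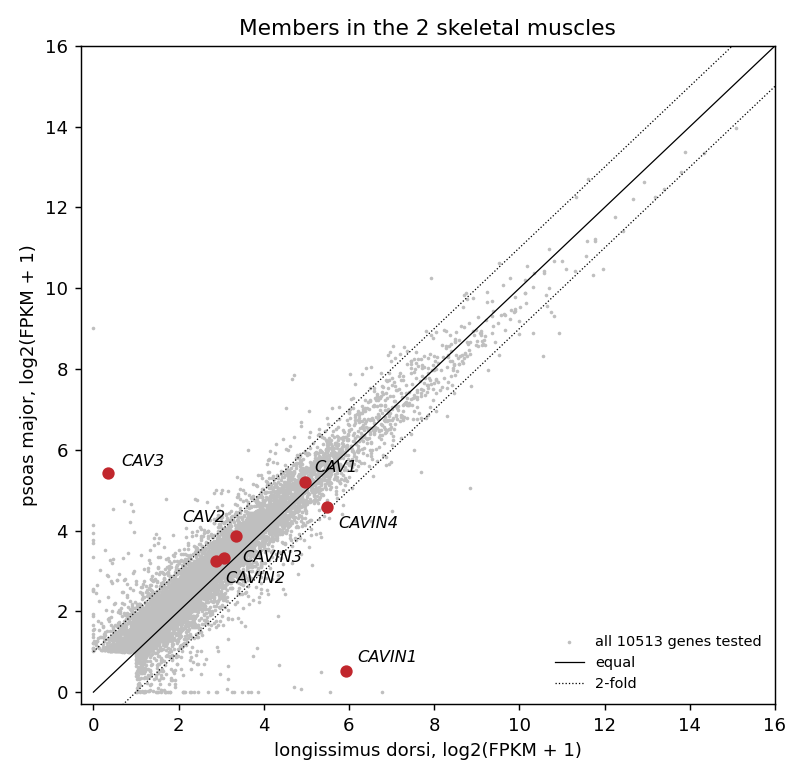
Level of each of the 10513 genes in longissimus dorsi (x axis) and psoas major (y axis), both as log2(FPKM + 1), with the 7 members in red and dotted lines at 2-fold. CAV3 and CAVIN1 lie far from the cloud on opposite sides, at differences of 5.08 and -5.40, and the other 5 members lie within the dotted lines.

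CAVIN1 was also placed among all genes that dip in 1 tissue, a count added after the data were seen. Of 8894 genes that reached 1 FPKM in 8 or all 9 tissues, 3.14% were at least 5-fold lower in the remaining tissue than in any other. For most of these the low tissue was liver (205 genes). For psoas major there were 8 such genes (0.0899%), CAVIN1 among them. CAV3 was in turn 1 of 5 genes (0.032%) with an FPKM + 1 in psoas major 5-fold or more above each other single library. Both genes were chosen with these values known, so neither count is a test.

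Neighbouring genes and cell markers of the muscles are given beside these values. OXTR, the oxytocin receptor gene next to CAV3, was at 2.92 FPKM in longissimus dorsi and 0.629 in psoas major. The unnamed model on the strand opposite CAV3 was at 0.0585 in longissimus dorsi and listed at 0 in each other library. Of the fibre markers, 2 of 5 were called higher in longissimus dorsi, beside 2.09% of all genes, and none in psoas major, with a summed level of 37570 against 20130 FPKM. The summed endothelial markers were at 117 and 127 FPKM in the same order, with none of 8 called, and the summed adipocyte markers at 136.3 and 134.6, with 1 of 6 called, towards longissimus dorsi. Of the tested hepatocyte markers 3 of 4 were called towards longissimus dorsi, among them ALB at 25.0 against 0.0864 FPKM. Towards psoas major, beside 4.66% of all genes, 1 of 3 tested cardiomyocyte markers was called (ACTC1, 216.5 against 24.1 FPKM) and 1 of 6 smooth muscle markers (SMTN, 27.6 against 12.2). Their part in the values of CAV3 and CAVIN1 was not tested.

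Heart was compared with each muscle at a difference of 2 or more on the log2 scale. Of the 6 members that passed the filter of this comparison, none was called higher in heart, beside 3.01% of all genes, and CAVIN4 was called higher in muscle, beside 1.91%. CAV3 did not pass the filter, since it was under 1 FPKM in heart and in longissimus dorsi. CAV1 was above psoas major by 1.04 and above longissimus dorsi by 1.26 in heart, CAV2 by 0.88 and 1.39, and CAVIN2 by 1.60 and 1.96. CAVIN1 was 5.88 above psoas major but 0.48 above longissimus dorsi. As heart minus the mean of both muscles, CAV1 was at 1.15, CAV2 at 1.13, CAVIN1 at 3.18, CAVIN2 at 1.78, CAVIN3 at 0.49 and CAVIN4 at -4.70. The median of all genes by that measure was 0.41. Cardiomyocyte markers were abundant in the heart library (21753 FPKM summed over 5 genes), beside CAV3 at 0.170 and CAVIN4 at 0.267. Whether these low heart values are failed estimates was not tested.

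Heart and the skeletal muscles were then set as a group against the other tissues. A call needed all of these 3 libraries above or below all 6 other tissues, with a mean difference of 1 or more. None of the 7 members was called, against 3.12% of all genes higher in striated tissue and 9.46% lower. For so few genes a count of 0 is near these shares. CAVIN4 missed the call by its heart level (0.267 FPKM), which lay under that of ovary (0.317), both under 1 FPKM. CAVIN4 alone was called higher in striated tissue after median-of-ratios or quantile scaling.

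The members' profiles over the 9 tissues were set against each other with Pearson's r of log2(FPKM + 1) and Spearman's rho. These describe 9 single libraries that differ in depth and cell makeup, and carry no p. CAV1 and CAV2, the neighbouring genes, had r = 0.96 and rho = 0.98, and CAV1 was the gene most like CAV2 among 12164 others at 5 FPKM or more in some tissue. CAV2 and CAVIN2 had r = 0.92 and rho = 0.83. CAV1 and CAVIN1 had r = 0.61 and rho = 0.67 with psoas major included, and 0.88 and 0.88 over the 8 tissues without it. CAV3 and CAVIN1 had r = -0.65 over 9 tissues and -0.16 without psoas major, so that value rests on psoas major. CAV3 and CAVIN4, the muscle forms, had r = 0.61 and rho = 0.29, and 0.32 and 0.02 without psoas major.

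The genes nearest to each member were listed by the same r. For CAV1 the nearest was ANO2, a calcium-activated chloride channel gene, at 0.98, ahead of CAV2. ANO2 followed CAV1 from 75.9 FPKM in lung to 1.77 in liver. CAV2 was followed most closely, after CAV1 and ANO2, by HIGD1B (0.96). CAVIN2 was nearest to an unnamed gene and then to CDH5, the vascular cadherin (0.96), and ESAM, an endothelial adhesion molecule (0.95). CAVIN3 was nearest to the transcription factor gene TCF4 (0.98). CAVIN4 was nearest to MYOD1, a myogenic transcription factor, and AMPD1, the muscle AMP deaminase (0.998 for each), and then GADL1. Nearest to CAVIN1 over the 9 tissues were PCDHGA4 at 0.88, CHCHD4 at 0.86 and the lipid phosphatase gene PLPP3 at 0.84. Without psoas major CAVIN1 had r = 0.91 with CAV2 and 0.88 with CAV1. The genes nearest to CAV3 shared its single high value in psoas major: the unnamed mitochondrial gene above (0.99), the limb transcription factor gene PITX1 (0.98; 14.4 FPKM in psoas major, listed at 0 in longissimus dorsi) and C5orf24 (0.93). Of the 21 nearest pairs over the 9 tissues, 9 were still among the nearest without psoas major and 10 without longissimus dorsi.

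Markers of cells rich in caveolae were summed for each tissue. The 8 matched endothelial markers summed to 551 FPKM in lung, 352 in adipose tissue, 225 in heart, 179 in spleen, 142 in kidney, 127 in psoas major, 117 in longissimus dorsi, 113 in ovary and 83.4 in liver. Against the log2 of this sum, CAVIN2 had r = 0.93, CAV2 0.88, CAV1 0.82, CAVIN3 0.78 and CAVIN1 0.69, with rho of 0.75, 0.75, 0.82, 0.68 and 0.72. Without psoas major CAVIN1 had r = 0.75 and rho = 0.81. CAVIN4 had r = -0.35 and rho = -0.35. CAV3 had r = -0.19 but rho = 0.25, and 0.06 and 0.41 without psoas major, so the sign of its r rests on that library. With the 6 adipocyte markers CAV1 had r = 0.60, CAV2 0.59 and CAVIN1 0.52, and CAVIN1 had 0.75 without psoas major. With the 6 alveolar type 1 markers CAVIN2 had r = 0.70, CAV2 0.61 and CAV1 0.51. With the fibroblast sum CAVIN3 had r = 0.79, CAV1 0.68, CAV2 0.62, CAVIN1 0.54 and CAVIN2 0.49. CAVIN3 had r = 0.74 with the smooth muscle sum. That sum was highest in spleen (1203 FPKM), ovary (615) and lung (512), and CAV1 and CAVIN1 had r = 0.37 and 0.02 with it. How far cell makeup accounts for the levels of the members was not tested.

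**Figure D4:**
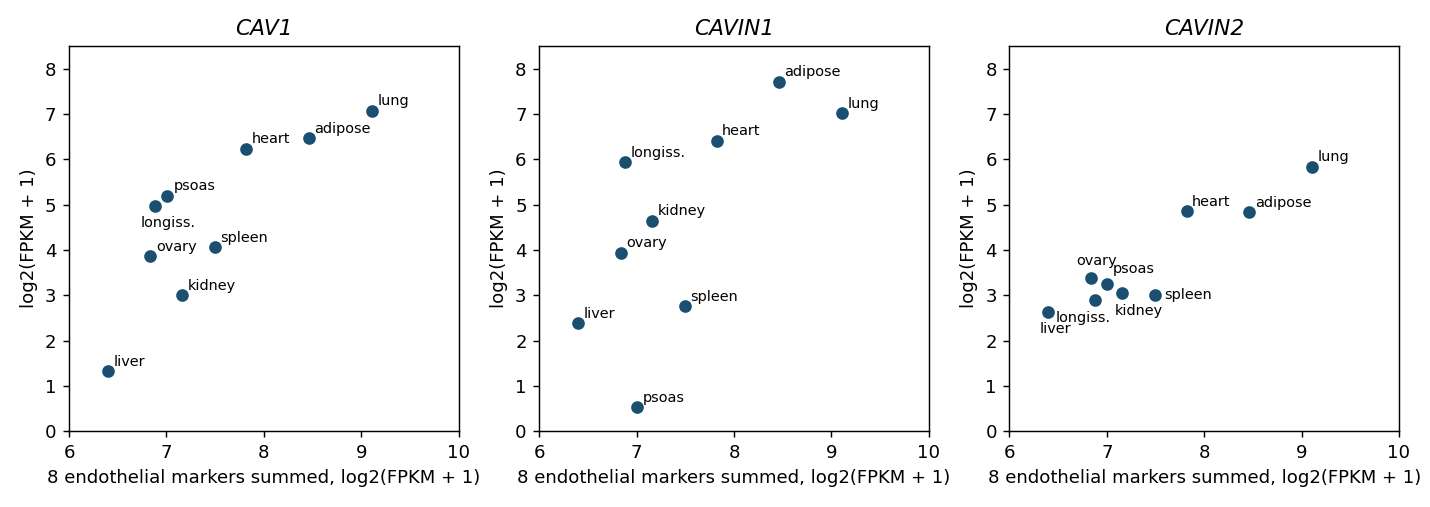
Level of CAV1, CAVIN1 and CAVIN2 (y axes, log2(FPKM + 1)) against the summed level of 8 endothelial markers (x axes, log2(FPKM + 1)), 1 point a tissue. Lung, adipose tissue and heart lie at the upper right for each gene, and psoas major lies below all other tissues in the CAVIN1 panel (0.440 FPKM).

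Proteins that work with caveolae were examined from lists of 30 genes, of which 28 were matched. They had been listed with earlier results of these data known. The neck of a caveola is held by EHD ATPases and membrane-bending PACSIN proteins. EHD2, which anchors caveolae to the surface, was at 130 FPKM in adipose tissue, 56.8 in lung, 30.7 in heart, 24.8 in ovary, 20.0 in psoas major and 17.5 in longissimus dorsi, and at 1.25 in liver. EHD2 thus shared with CAVIN1 its highest tissue and its lead of adipose tissue over lung, but it was not low in psoas major. PACSIN3 was the form of muscle, at 79.7 FPKM in psoas major, 71.9 in longissimus dorsi and 50.1 in heart against at most 19.0 elsewhere. It was the only one of 7 neck genes called higher in striated tissue, beside 3.12% of all genes. PACSIN2 was highest in kidney (48.3) and lung (44.5). EHD4, alone of 5 tested neck genes, was called higher in heart (34.6) than in psoas major (2.50) and longissimus dorsi (1.64), beside 3.01% of all genes.

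Among 9 genes of receptors, channels and enzymes that have been placed in caveolae, CD36, a fatty acid transporter, stood at 553.9 FPKM in adipose tissue, 184 in heart, 128 in psoas major and 79.2 in longissimus dorsi, and at 8.62 in lung. NOS3, the endothelial nitric oxide synthase that CAV1 binds, was highest in adipose tissue (17.0) and lung (11.9). PLVAP, the protein of endothelial diaphragms, was highest in spleen (378) and lung (305). SLC2A4, the insulin-responsive glucose transporter, was called higher in striated tissue, with 39.4 in psoas major, 29.7 in heart and 20.5 in longissimus dorsi. TRPC1, a cation channel gene, was called lower there, at 0.397 to 1.02 FPKM against at least 2.29 elsewhere. The other genes of this list were not called, and of all genes 3.12% were called higher in striated tissue and 9.46% lower. The insulin receptor gene INSR was highest in kidney (17.9).

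In muscle, CAV3 is linked to the dystrophin complex, to membrane repair and to the T-tubules. Of 10 matched genes of this list, 4 were called higher in striated tissue, beside 3.12% of all genes, among them DMD, which encodes dystrophin, and JPH2, which ties T-tubules to the calcium store. TRIM72, a membrane repair gene whose protein binds CAV3, was at 40.6 FPKM in psoas major and 24.6 in longissimus dorsi but 0.0920 in heart. BIN1, which shapes T-tubules, was at 382 and 326 against 5.76 in heart. TRIM72 and BIN1 were the 2 of 10 genes called higher in muscle than in heart, beside 1.91% of all genes, and the other 8 were not called. The flotillins, which mark rafts outside caveolae, were broad: FLOT1 ranged from 16.4 FPKM in liver to 209 in ovary and FLOT2 from 15.3 in liver to 45.5 in lung.

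Between the muscles, none of the 25 tested genes of these lists was 2-fold apart on FPKM + 1, beside 6.75% of all genes. The largest difference was 0.91 on the log2 scale. For so few genes a count of 0 is near that share. In plain FPKM TRPC1 was 2.58-fold higher in psoas major, at 1.02 against 0.397. Scaling every library to the mean sum brought 2 of the 25 genes past the threshold towards psoas major. Their medians were 0.18 for the neck, 0.53 for receptors and enzymes, 0.10 for the dystrophin complex list and 0.29 for the flotillins, against 0.27 for all genes and 0.23 for the 7 members.

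The pool gives a further reading of each gene in a library made from mixed tissue. Its level was set against the mean of the 7 tissues named for it, with the muscles averaged and equal shares assumed, because the labels give none. CAV1 was at 55.5 FPKM against a mean of 39.8, CAV2 at 15.6 against 17.6 and CAVIN2 at 16.3 against 17.2. CAVIN1 was at 6.56 against 41.6, which is 6.33-fold lower, and CAVIN3 at 3.85 against 13.0, which is 3.39-fold lower. These were the 2 members called at a difference of 1 or more on the log2 scale, beside 7.09% of all genes called lower in the pool and 4.88% called higher. CAVIN1 in the pool lay close to its levels in spleen (5.75) and liver (4.20), and CAVIN3 lay below every named tissue but liver.

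Muscle genes were present in the pool. CAV3 stood at 6.35 FPKM against a mean of 3.14. That mean became 6.12 with psoas major alone as the muscle, and 0.153 with longissimus dorsi alone, where CAV3 was called higher in the pool. CAVIN4 stood at 3.22 against 4.89, or against 3.41 with psoas major alone and 6.37 with longissimus dorsi alone. CAVIN1 was called lower in the pool with either muscle, against means of 37.3 and 45.8. The fibre markers summed to 2038 FPKM and the hepatocyte markers to 22254 FPKM. In the pool 4 of 5 fibre markers and all 5 matched cardiomyocyte markers were called lower, while 4 of 4 tested hepatocyte markers were called higher. All 5 oocyte markers, 4 of 6 fibroblast and 3 of 5 kidney tubule markers were called lower too, and no endothelial or lymphocyte marker was called. Of the 6 alveolar type 1 markers, 1 was called higher and none lower, with a median of 0.70 on the log2 scale. The oocyte markers summed to 0.296 FPKM in the pool against 477 in ovary. The equal-share mean therefore did not match the pool for markers of several of its tissues, ovary among them. The part of this in the levels of CAVIN1 and CAVIN3 was not tested. The ratio of CAVIN1 to CAV1 in the pool was 0.118, below that of all 8 tissues other than psoas major, and the lowest of those was 0.367 in spleen. The labels do not say which muscle went into the pool, or in which shares.

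**Figure D5:**
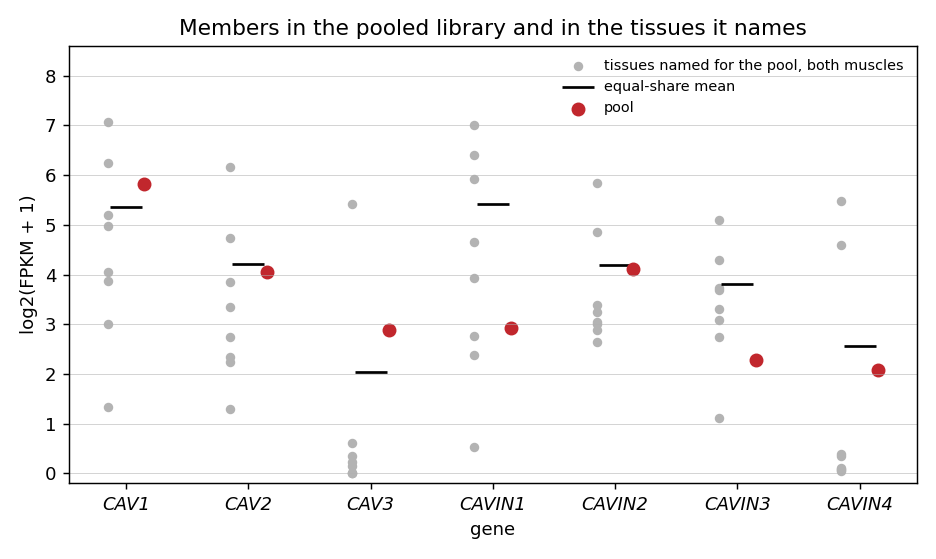
Level of each member in the pool (red), in the tissues named for it (grey, both muscles drawn) and in their equal-share mean (black bar), as log2(FPKM + 1). The pool lies under the bar for CAVIN1 (6.56 against 41.6 FPKM) and CAVIN3 (3.85 against 13.0) and close to it for CAV2 and CAVIN2.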

How the data were processed

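Total RNA of 10 libraries was sequenced once each. StringTie 1.2.2, TopHat2 2.1.0 and the assembly Sscrofa11.1 are listed per the submitters' processing notes. The sources used here do not give the annotation release, the strand setting or the filters. In what the authors deposited, each table row holds 1 value per gene and library, read as FPKM from non-integer values and from StringTie, since its header names no unit. No counts were used, and no test was run. Symbols were looked up by Ensembl identifier (14857 genes) or taken from the RefSeq protein-coding gene overlapping by at least 0.5 of the longer gene, best both ways (1417 genes). Where rows shared a symbol, the highest stood for it. Levels were compared as log2(FPKM + 1) over the whole table, with the thresholds given beside each result. Depth was estimated from the commonest step in genes spanning 400 to 1500 bp.

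The members, gene lists and rules were chosen with earlier results of these data known. The rule named the 7 members, up to 6 genes of each partner list, up to 3 markers of a cell type and the 3 genes most like each member; ND5, OXTR, TMEFF1 and 2 unnamed genes were added after their values were seen. No sequences were used here, and 1 gene of a partner list is not reported here. The calls were tried on simulated data, with changes planted in well expressed genes of otherwise near equal level in every library. All 100 planted 16-fold changes were recovered in each comparison tried. At 4-fold the heart call recovered 23 of 100 and enrichment among the 9 libraries 0 of 100, while the other calls recovered all 100. The cuts of these 2 calls are 4-fold and 5-fold on FPKM + 1, so a planted 4-fold change lies at or below them. Enrichment among the 8 classes was not tried in this way. Such data do not resemble tissues or values near 0. Alternatives varied the pseudocount (0.1 and 5), the scaling, the filter, the folds, the gene model and the muscle taken. Python 3.11.15, numpy 2.4.6 and pandas 2.3.3 were used.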

Additional observations from a re-analysis of the deposited data

How the results depend on the processing

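Of 136 recomputed counts and shares, 118 stayed within 1.5 times the reported count or 1 percentage point of the reported share. Part of this was fixed in advance. At a pseudocount of 1, dropping the filter could change no call. Each member had 1 gene model, so summing the models of a symbol left the members' values as they were. Members enriched in a class numbered 1 in place of 2 with a pseudocount of 5, with longissimus dorsi alone as muscle and, added after the data were seen, with the 9 libraries kept apart. With longissimus dorsi alone, 1 member was highest in skeletal muscle and 1 was called higher in the pool. Median-of-ratios scaling and, added later, centring on the median of all genes each gave 2 members higher in longissimus dorsi, CAVIN1 and CAVIN4 under the former. Centring also gave 1 member higher in the pool. With median-of-ratios and quantile scaling 1 member, CAVIN4, was higher in striated tissue. A 2-fold threshold called 2 members higher in heart. Partner genes higher in psoas major numbered 1 with a pseudocount of 0.1 and 2 after scaling to the mean sum. Quantile scaling put the shares in psoas major at 44.9% for CAV3 and 53.2% for CAVIN4. Of the 21 nearest genes, 7 were shared by Spearman's rho, 9 without psoas major and 10 without longissimus dorsi. Of 147 recomputed differences of single members, those under the unfiltered and summed settings included, none reversed a call, and 3 passed the threshold newly, each for CAVIN4.

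Over all genes, the share of calls that favoured heart was 61.2% as deposited and 46.8% with median-of-ratios scaling. The share favouring striated tissue was 24.8% and 67.1%, and the share favouring the pool 40.8% and 27.9%. Pseudocounts of 0.1 and 5 gave 1024 and 141 genes higher in psoas major. No paired analysis was possible because each tissue had 1 library and the labels carry no replicate numbers. Depth limits values far under 1 FPKM most.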
